A study of Arabidopsis thaliana with 12 samples.

Results

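The effect of the *MtPHD6* transgene on watered plants was examined in 6 of the 12 leaf RNA-seq libraries of the study, namely PHD6-control replicates 1 to 3 and WT-control replicates 1 to 3. PHD6-control plants were Arabidopsis of the Columbia-0 background that carried *MtPHD6*, a gene of the legume *Medicago truncatula*, and WT-control plants were Columbia-0 without it. Both were watered throughout. The other 6 libraries came from plants of the same genotypes deprived of water, PHD6-drought and WT-drought, and are used below only to set the transgene's effect under drought beside its effect in watered plants. The transgene was carried in the pCAMBIA1301S vector and transgenic plants were selected on hygromycin to homozygous lines of the T3 generation, but neither the sample records nor the paper says which line gave a library. The length of the drought treatment differs between the sample records and the methods, and the records give the same treatment time for watered plants. *MtPHD6* reads were not analysed here, so transgene expression could not be checked in these libraries. Since whole leaves were sequenced, more cells of a type and more RNA per cell cannot be told apart.

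MtPHD6 belongs to the Alfin-like family, plant proteins with a plant homeodomain (PHD) finger, a zinc-binding fold that in this family reads methylated lysine 4 of histone H3 at active genes. Alfin1, the founding member from alfalfa, was described as a DNA-binding regulator of salt-responsive genes in roots. Several of the gene groups described below (cell wall loosening enzymes, touch genes, calcium sensors and zinc finger repressors) are known in Arabidopsis for fast and transient induction by touch, wounding, chitin or cold.

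Counts over named genes ran from 22245599 to 24717357 per library in PHD6-control and from 17839925 to 20430323 in WT-control. Reads were counted per gene, and expression is given below as CPM, the counts of a gene per 1e+06 counts of the library, after TMM scaling, which sets libraries on one scale by their bulk of unchanged genes. A gene was called where edgeR's quasi-likelihood test gave a p under 0.05 after Benjamini-Hochberg adjustment over 19681 genes. Errors on log2 fold changes are approximate standard errors, the absolute log2 fold change divided by the square root of that test's F statistic. Not every library resembled its group most. Over all genes, PHD6-control replicate 3 was closer to WT-drought replicates 1, 2 and 3 (Pearson r = 0.9923, 0.9908 and 0.9904) than to its own group. Its r was 0.9895 with PHD6-control replicate 1 and 0.9893 with PHD6-control replicate 2. The other 5 libraries were closest to one of their own group. WT-control replicate 2 was low in leaf mesophyll markers, with a median log2 ratio of -0.337 to the WT-control mean against 0.238 and 0.123 in WT-control replicates 1 and 3. It was high in cell cycle genes (0.279, against -0.337 and 0.038) and in flower and pollen markers (0.842, against -0.764 and -0.126). No member of those 3 lists was called by edgeR or DESeq2, with 8, 26 and 10 genes tested and 0, 2 and 0 at an unadjusted p under 0.05 in edgeR, and the part of these markers in other results was not tested. Root markers were largely absent, with 3 of 16 genes passing the filter on low counts.

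With the transgene 981 genes changed in watered plants, 4.98% of those tested. Of these 839 rose (4.26%) and 142 fell (0.722%), while the median log2 fold change of all genes was -0.02. The rises were also larger. Among the genes that rose, 364 exceeded 2-fold, 102 exceeded 4-fold and 21 exceeded 8-fold, against 29, 3 and 1 of the genes that fell. In all 981 genes the groups did not overlap, but 24.8% of all genes tested had such groups. Without PHD6-control replicate 3 the calls were 545 higher (2.77%) and 55 lower (0.279%), and without WT-control replicate 3 they were 446 higher (2.27%) and 61 lower (0.31%). Of the 839 rises 410 were called whichever of the 6 libraries was left out, and of the 142 falls 40 were. At the thresholds of the study, more than 2-fold at p under 0.05 with no adjustment, 602 genes were higher (3.06%) and 82 were lower (0.417%). DESeq2 called 1219 of the 19681 genes higher and 264 lower. Counts of list members given below are to be read beside these shares of all genes.

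**Figure D1:**
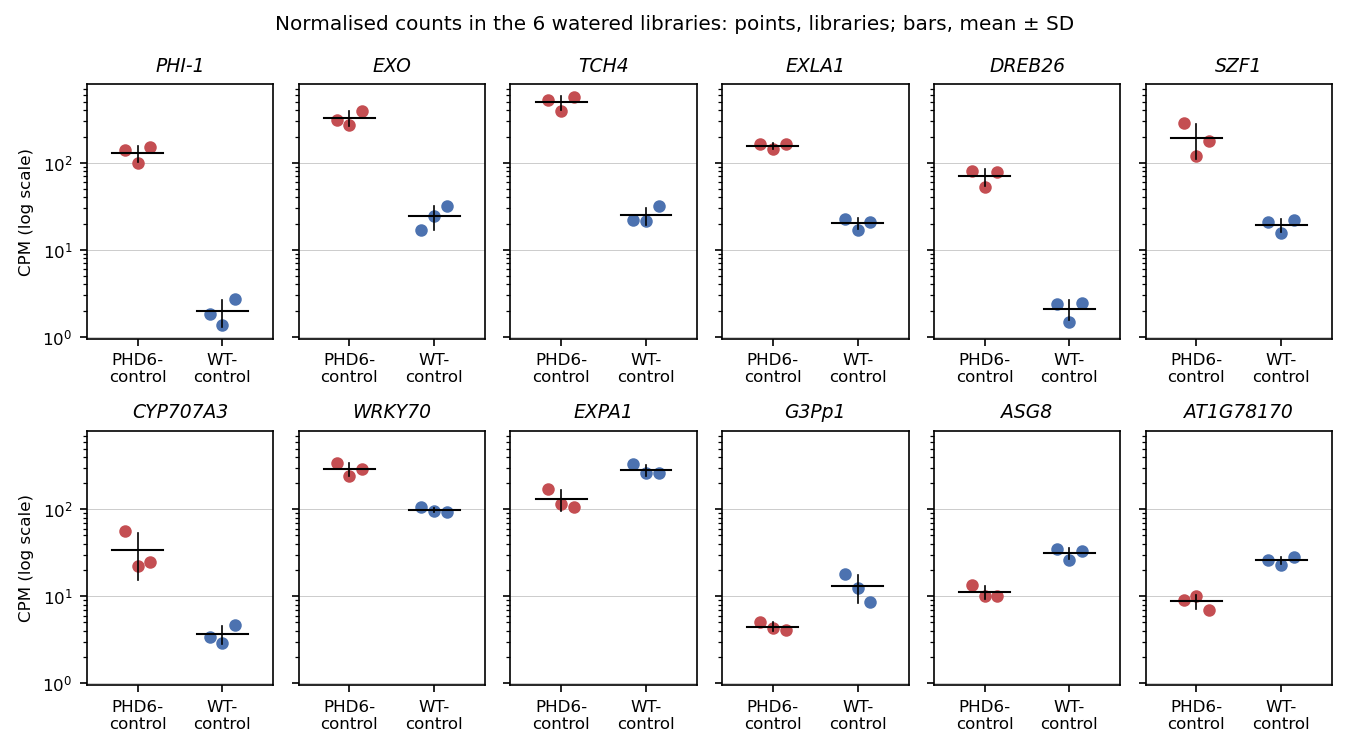
CPM on a log axis for 12 genes in PHD6-control libraries (left of each panel) and WT-control libraries (right), with points for libraries and black bars for the mean ± SD of 3. The groups are separate in every panel, and *PHI-1* stood at 99.3 to 151 CPM in PHD6-control against 1.38 to 2.71 CPM in WT-control.

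Genes of the growing and loosening cell wall held many calls. *PHI-1* (AT1G35140, chromosome 1, 12851983 to 12853235), a secreted protein of the EXORDIUM family known for sugar starvation responses, had 140, 99.3 and 151 CPM in PHD6-control, against 1.83, 1.38 and 2.71 CPM in WT-control. This log2 fold change of 6.06 ± 0.25 (adjusted p = 6.13e-05, edgeR) was the largest of all genes that passed the naming rule. *EXO* (AT4G08950), the brassinosteroid-responsive founder of the family, had 313, 276 and 396 CPM in PHD6-control and 16.9, 24.5 and 31.7 CPM in WT-control, for a log2 fold change of 3.75 ± 0.24 (adjusted p = 0.000238, edgeR). *EXL5* averaged 217 ± 9.55 CPM in PHD6-control and 69.2 ± 13.7 CPM in WT-control (SD, n = 3 each), and *EXL3* 280 ± 38.1 and 95.8 ± 8.6 CPM. In all 5 of the 7 EXORDIUM family genes rose and the median log2 fold change of the 7 was 1.55.

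Xyloglucan endotransglucosylase/hydrolases (XTHs) cut and rejoin the xyloglucan chains between cellulose fibrils. Of 24 tested, 10 rose and none fell, with a median log2 fold change of 0.76. *TCH4*, the touch-induced XTH22, had 523, 393 and 568 CPM in PHD6-control, against 22.1, 21.5 and 31.5 CPM in WT-control. Its lowest PHD6-control library was far above its highest WT-control library. *XTH25* had 13.1, 15.1 and 24.2 CPM in PHD6-control and 2.09, 2.5 and 1.98 CPM in WT-control, which is a log2 fold change of 2.99 ± 0.26 (adjusted p = 0.000838, edgeR). The log2 fold changes of *XTH33* and *XTH30* were 2.35 and 2.04 (adjusted p = 0.00195 and 0.00167, edgeR). *CSLC04*, an enzyme that makes the glucan backbone of xyloglucan, rose as well (236 ± 19.2 CPM in PHD6-control and 110 ± 9.47 CPM in WT-control, SD, n = 3 each, adjusted p = 0.000948 by edgeR).

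Expansin-like genes and alpha-expansins had calls in opposite directions. Of 5 expansin-like genes tested 3 rose, with a median of 1.42. *EXLA2* had 26.5, 27.5 and 25.5 CPM in PHD6-control and 11.3, 10.7 and 10.4 CPM in WT-control, and the low *EXLA3* had 1.62, 2.2 and 2.19 CPM against 0.47, 0.491 and 0.452 CPM. *EXLA1* was also higher (163, 144 and 166 CPM in PHD6-control, against 22.7, 17.1 and 20.7 CPM in WT-control). Of 13 alpha-expansins, which loosen walls at acid pH, none rose and *EXPA1* fell, with 172, 115 and 107 CPM in PHD6-control, against 331, 259 and 262 CPM in WT-control (log2 fold change -1.11 ± 0.19, adjusted p = 0.0128, edgeR). *EXPA15*, *EXPA8* and *EXPA4* had log2 fold changes of -0.77, -0.75 and -0.50 that were not called by edgeR (adjusted p = 0.106, 0.109 and 0.102) but were called by DESeq2, which called 4 alpha-expansins lower. Among 37 arabinogalactan proteins, glycoproteins of the cell surface, 8 rose and none fell, among them *AGP17* (91.7 ± 4.16 CPM in PHD6-control and 40.3 ± 10.6 CPM in WT-control) and *FLA9* (197 ± 20.7 and 99.4 ± 19.3 CPM, SD, n = 3 each). DESeq2 called 12 of them higher. Without WT-control replicate 3 the counts of genes that rose were 4 for the EXORDIUM family, 8 for XTHs, 3 for expansin-like genes and 6 for arabinogalactan proteins, and without PHD6-control replicate 3 they were 5, 10, 3 and 5.

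**Figure D2:**
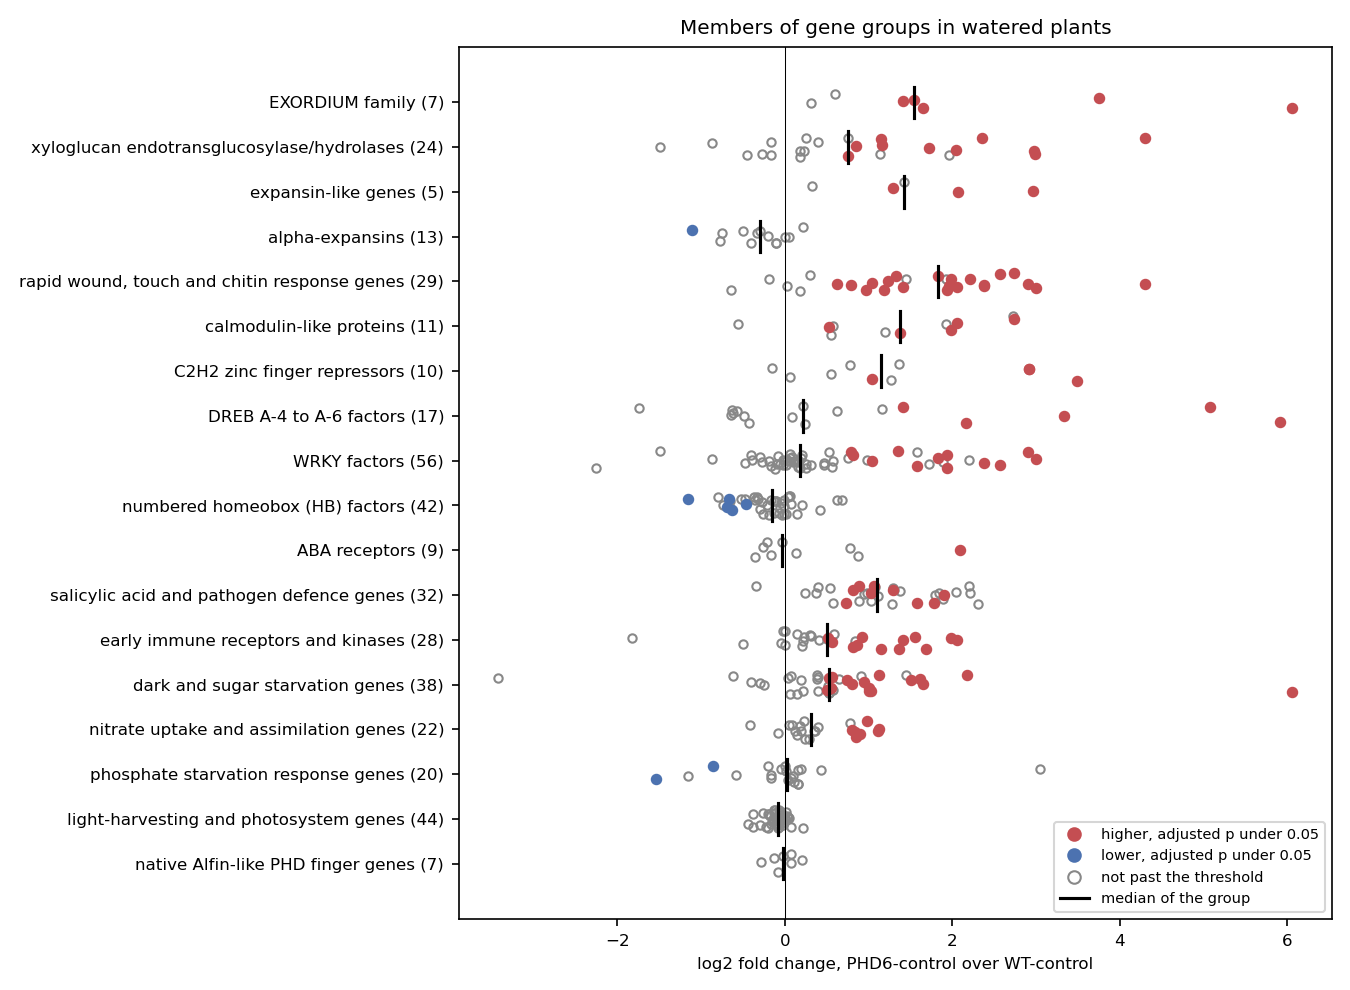
The log2 fold change of PHD6-control over WT-control for each tested member of selected gene groups (number tested in brackets), with filled points for genes past the threshold and a black line at the median of the group. XTHs, EXORDIUM and expansin-like genes lie to the right with medians of 0.76, 1.55 and 1.42, while light-harvesting genes and the native Alfin-like genes lie around 0.

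The promoters of the genes that rose were searched for short elements known from stress-induced genes. One of them, the rapid stress response element, has the core CGCGTT. It was searched on both strands of the 300 bases before each gene's annotated start, and was present in 72 of 839 genes that rose (8.58%), 13 of the 102 that rose more than 4-fold (12.7%), 2 of 142 that fell (1.41%) and 662 of 19670 genes tested that had such a window (3.37%). The 4 promoters below belong to touch or cell wall genes among the 13 and were chosen after their values were seen. *EXLA3*, which also holds the element, is not shown. They are shown 5′ to 3′ on the strand of the gene, from the RefSeq genome of TAIR10.1, with the element or its reverse complement in capitals. They lie at chr1:12851683-12851982 on the plus strand (*PHI-1*), chr4:14827212-14827511 on the minus strand (*XTH18*), chr3:16895866-16896165 on the plus strand (*EXLA1*) and chr5:14999620-14999919 on the minus strand (*TCH2*), and none overlaps another annotated gene.
PHI-1 promoter: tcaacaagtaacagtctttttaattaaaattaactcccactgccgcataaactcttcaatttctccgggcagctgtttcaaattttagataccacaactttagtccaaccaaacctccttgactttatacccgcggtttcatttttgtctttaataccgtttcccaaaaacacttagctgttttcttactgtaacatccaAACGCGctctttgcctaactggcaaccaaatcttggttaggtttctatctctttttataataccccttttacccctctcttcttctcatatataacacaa
XTH18 promoter: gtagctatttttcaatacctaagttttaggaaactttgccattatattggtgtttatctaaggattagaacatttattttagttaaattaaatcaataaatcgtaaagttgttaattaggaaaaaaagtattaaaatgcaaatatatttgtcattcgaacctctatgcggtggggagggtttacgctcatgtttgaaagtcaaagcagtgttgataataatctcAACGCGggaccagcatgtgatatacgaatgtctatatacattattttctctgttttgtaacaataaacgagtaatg
EXLA1 promoter: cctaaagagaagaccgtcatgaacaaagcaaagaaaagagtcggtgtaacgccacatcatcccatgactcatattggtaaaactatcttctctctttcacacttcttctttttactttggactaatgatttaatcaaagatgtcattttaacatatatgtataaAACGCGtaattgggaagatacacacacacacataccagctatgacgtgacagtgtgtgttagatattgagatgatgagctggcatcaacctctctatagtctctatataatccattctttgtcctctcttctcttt
TCH2 promoter: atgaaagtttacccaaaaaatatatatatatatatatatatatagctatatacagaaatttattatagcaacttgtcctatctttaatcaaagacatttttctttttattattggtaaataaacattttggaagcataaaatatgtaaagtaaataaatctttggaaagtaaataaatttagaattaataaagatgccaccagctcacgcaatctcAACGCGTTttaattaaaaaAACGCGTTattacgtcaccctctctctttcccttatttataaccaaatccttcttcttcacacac
The element of *PHI-1* begins 100 bases before the annotated start, that of *XTH18* 76 bases and that of *EXLA1* 136 bases before it. *TCH2* has 4 overlapping matches, since its capitals read the same on both strands. *XTH18* had 15.7, 5.51 and 9.28 CPM in PHD6-control, against 1.2, 2.1 and 0.452 CPM in WT-control (log2 fold change 2.98 ± 0.52, adjusted p = 0.0142, edgeR).

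Of the other elements searched, the CG-1 element (CGCGTG), bound by calmodulin-binding transcription activators, was present in 5.72% of genes that rose, 2.82% of those that fell and 3.32% of all genes. The W-box with a following C (TTGACC), bound by WRKY factors, was present in 17.8%, 5.63% and 13.8%. The shorter W-box core (TTGAC), which the longer one contains, was present in 58.2%, 43.7% and 49.9%. The DRE core (CCGAC) of cold and dehydration genes stood at 13.3%, 10.6% and 14.9%, the G-box (CACGTG) of ABA-responsive and light-responsive genes at 7.39%, 6.34% and 7.89%, and the GCC box (GCCGCC) at 2.38%, 2.11% and 2.42%. The 2 forms described for Alfin1 (GNGGTG or GTGGNG) were found in 26.8% of genes that rose, 24.6% of those that fell and 26.5% of all. Of the 102 genes that rose more than 4-fold 35 had one of them (34.3%). The evening element core (AATATCT) of clock genes was present in 14.8% of genes that rose, 12% of those that fell and 11.8% of all, and the sugar repressive element (TTATCC) in 17.2%, 17.6% and 15.5%. Among the genes that rose the rapid stress response element was thus the one farthest, in relative terms, from its share in all genes, and the Alfin1 forms were near their share in all genes. These shares are descriptions, and a match in a window does not show that a factor binds there.

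**Figure D3:**
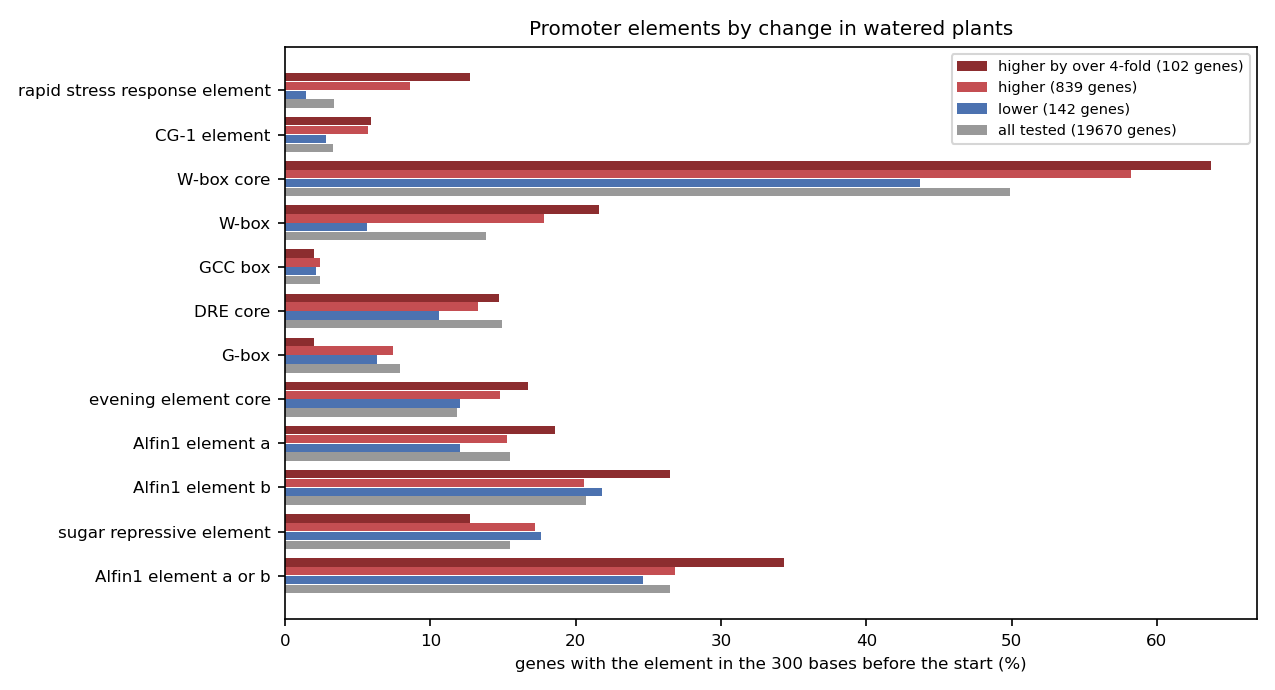
Share of genes (in %, axis from 0) with each element in the 300 bases before the start, for genes that rose more than 4-fold, genes that rose, genes that fell and all genes tested. The rapid stress response element stands at 12.7, 8.58, 1.41 and 3.37% in these sets.

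Most touch genes were higher with the transgene. Of 29 genes on a list of rapid wound, touch and chitin responses, 22 rose and none fell, with a median log2 fold change of 1.84. Without PHD6-control replicate 3 the count was 20, and without WT-control replicate 3 it was 15. The list's median log2 ratio to the WT-control mean was 1.797, 1.06 and 1.605 in the PHD6-control libraries and 0.161, -0.071 and -0.083 in the WT-control libraries, so each PHD6-control library was above all of WT-control. *TCH2*, a calmodulin-like protein, had 151, 110 and 109 CPM in PHD6-control, against 35.8, 22.3 and 30.8 CPM in WT-control (log2 fold change 2.06 ± 0.19, adjusted p = 0.0011, edgeR). *TCH3*, another touch-induced calmodulin-like protein, had 295, 209 and 341 CPM in PHD6-control and 73.6, 83.6 and 56.7 CPM in WT-control. *CML38* was low, at 6.46, 3.26 and 7.05 CPM in PHD6-control and 1.25, 0.892 and 0.339 CPM in WT-control. Among 11 calmodulin-like genes 5 rose and none fell (median 1.38), with 3 called with PHD6-control replicate 3 left out and 3 with WT-control replicate 3 left out. Of 24 calcium-dependent protein kinases 3 rose by edgeR, where 4.26% of all genes did, and 6 by DESeq2, which called 1219 of 19681 higher. The 3 included *CPK32*, at 128, 69.2 and 89.8 CPM in PHD6-control and 30.2, 28.4 and 27 CPM in WT-control, and *CPK28*, a kinase that turns over immune signalling, at 67 ± 15.1 and 26.1 ± 0.933 CPM (SD, n = 3 each). Of 24 kinases that pair with calcineurin B-like calcium sensors 1 rose and 1 fell, where 4.26% of all genes rose and 0.722% fell. Their median was 0.03. The 1 that rose, *CIPK15*, had 75.3 ± 13.2 CPM in PHD6-control and 23.7 ± 0.861 CPM in WT-control (SD, n = 3 each, adjusted p = 0.00066 by edgeR).

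Several zinc finger factors that act in stress rose. Of 10 C2H2 zinc finger repressors of the ZAT kind 4 rose and none fell, with 3 called when PHD6-control replicate 3 was left out and 2 when WT-control replicate 3 was. *ZAT7* had 6.83, 3.31 and 11.6 CPM in PHD6-control, against 0.732, 0.669 and 0.509 CPM in WT-control (log2 fold change 3.49 ± 0.48, adjusted p = 0.00531, edgeR). *STZ*, a salt tolerance zinc finger also called ZAT10, had 45.2, 12.3 and 31.4 CPM in PHD6-control and 5.28, 3.08 and 3.45 CPM in WT-control. Without WT-control replicate 3 its log2 fold change was 2.84, against 2.92 with all libraries, and edgeR's adjusted p was 0.0553. *ZF1* had 6.6, 3.88 and 6.08 CPM in PHD6-control and 1.15, 0.669 and 0.339 CPM in WT-control. *RHL41*, also called ZAT12, overlapped between groups, with 11.2, 2.43 and 8.26 CPM in PHD6-control and 4.39, 2.72 and 1.36 CPM in WT-control (adjusted p = 0.248, edgeR). Among 9 tandem CCCH zinc finger genes, which bind RNA, 3 rose (1 without WT-control replicate 3), and the median log2 fold change was 0.25. *SZF1* had 286, 120 and 177 CPM in PHD6-control, against 20.6, 15.8 and 21.8 CPM in WT-control. *CZF1* (90.8, 41.2 and 59 CPM in PHD6-control, 27.2, 23.2 and 23 CPM in WT-control) and AT5G44260, also called TZF5 (6.14, 6.48 and 5.55 CPM against 3.03, 1.47 and 2.21 CPM), were called with adjusted p = 0.0185 and 0.0151 by edgeR. Both calls were lost with fewer libraries while the fold changes stayed close. *CZF1*, with a log2 fold change of 1.38, had 1.34 both without WT-control replicate 2 (adjusted p = 0.0621, edgeR) and without WT-control replicate 3 (adjusted p = 0.0912, edgeR). AT5G44260, with 1.44, had 1.39 to 1.44 where its call was lost, with an adjusted p of 0.0622 without PHD6-control replicate 1, 0.0507 without PHD6-control replicate 2, and leaving out WT-control replicate 3 gave 0.0701.

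Calls among AP2-type factors came from some of their subgroups. A hand-written list of DREB factors of groups A-4 to A-6 had 17 genes tested. Of these 5 rose and none fell, also without PHD6-control replicate 3 or WT-control replicate 3. *DREB26* had 80.1, 52.1 and 77.5 CPM in PHD6-control, against 2.35, 1.47 and 2.43 CPM in WT-control, which is a log2 fold change of 5.08 ± 0.24 (adjusted p = 0.0001, edgeR). AT1G33760 had 14.5, 4.63 and 9.52 CPM in PHD6-control and was close to undetected in WT-control, at 0.105, 0.178 and 0.17 CPM. AT1G77640 had 14.7, 6.48 and 11 CPM in PHD6-control and 1.36, 0.758 and 1.07 CPM in WT-control, and AT1G22190 had 97.2 ± 15.1 and 21.7 ± 0.64 CPM (SD, n = 3 each). AT2G44940 of the same protein superfamily, which is not on that list, fell. It had 6.74, 6.79 and 5.79 CPM in PHD6-control and 19.6, 16.7 and 13.5 CPM in WT-control. The absence of falls thus holds only for edgeR's calls among the listed genes, and the list was not shown to be complete. At the study's thresholds 6 listed genes were higher and 1 was lower, where 3.06% of all genes were higher and 0.417% lower. With no overlap between groups 6 listed genes were higher and 4 lower. Over all genes tested 24.8% had no overlap in either direction. None of the 6 DREB1 and DREB2 factors tested, the classical cold and drought regulators, was called by edgeR, with 1 at an unadjusted p under 0.05 and 1 called by DESeq2. *CBF2*, at 13.4, 6.04 and 2.8 CPM in PHD6-control and 2.77, 1.96 and 3.45 CPM in WT-control, overlapped between groups (adjusted p = 0.185, edgeR). RAV and TEMPRANILLO repressors rose in 3 of 4 genes. *RAV1* had 179, 145 and 196 CPM in PHD6-control, against 49.1, 36.1 and 48.2 CPM in WT-control. *TEM1*, a repressor of flowering, averaged 84.2 ± 11.8 and 28.7 ± 3.43 CPM, and *RAV2* 44.4 ± 10.9 and 12.2 ± 4.27 CPM in the same groups (SD, n = 3 each). Of 17 stress-induced ERF factors 4 rose and none fell, with 2 called when WT-control replicate 3 was left out and 8 by DESeq2. *ERF104* had 113, 47.6 and 62.9 CPM in PHD6-control and 18.1, 11.2 and 17.6 CPM in WT-control, and *ERF6* 24, 10.1 and 17.9 CPM against 3.61, 3.17 and 3.05 CPM. Outside that list *ERF15* fell to 3.83, 2.65 and 2.92 CPM in PHD6-control, against 10.9, 9.45 and 5.82 CPM in WT-control, with an adjusted p of 0.0137 by edgeR. Without PHD6-control replicate 3 the log2 fold change of -1.48 was -1.43 and the adjusted p 0.0577.

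Of 64 MYB factors 8 rose and 2 fell, against 7 and 1 without PHD6-control replicate 3, 6 and 0 when WT-control replicate 3 was left out and 9 and 4 by DESeq2. The 4 with the smallest p belong to one subgroup, MYB44-like regulators of stress and auxin responses. *MYB70* had 69.7, 59.6 and 61 CPM in PHD6-control, against 15.5, 12.4 and 12.5 CPM in WT-control (log2 fold change 2.23 ± 0.11, adjusted p = 0.000114, edgeR). *MYB77*, *MYB73* and *MYBR1* (MYB44) had log2 fold changes of 2.38, 2.21 and 1.96, and none of their groups overlapped. WRKY factors rose in 12 of 56 genes and none fell, with a median of only 0.18 over the family. *WRKY18* had 41.7, 34 and 90.1 CPM in PHD6-control and 6.79, 9.05 and 6.11 CPM in WT-control. *WRKY53*, a regulator of leaf senescence and defence, had 23.9, 13.2 and 24.9 CPM in PHD6-control and 3.55, 4.73 and 1.98 CPM in WT-control, and *WRKY70* had 344, 241 and 292 CPM against 105, 95.8 and 93.8 CPM. The WRKY count was 9 with PHD6-control replicate 3 left out and 6 with WT-control replicate 3 left out. Among 68 NAC factors 4 rose and 1 fell, which is near the 4.26 and 0.722% of all genes, and the fall was lost without either replicate 3. *NAC090* had 7.38, 4.76 and 18.1 CPM in PHD6-control and 0.941, 1.38 and 0.565 CPM in WT-control. Its log2 fold change of 3.36 (adjusted p = 0.0113, edgeR) was 3.11 without WT-control replicate 3 (adjusted p = 0.0633). *NAC062*, a membrane-bound factor of cold and unfolded protein responses, averaged 48.2 ± 8.6 CPM in PHD6-control and 20 ± 1.09 CPM in WT-control (SD, n = 3 each). The GATA factor *BME3*, known for promoting germination, had 185, 143 and 159 CPM in PHD6-control and 41, 40.9 and 39.4 CPM in WT-control (adjusted p = 0.000125, edgeR). *GATA7* fell by 0.73 on the log2 scale (8.69 ± 0.314 CPM in PHD6-control and 14.4 ± 1.12 CPM in WT-control, SD, n = 3 each, adjusted p = 0.00603 by edgeR). Among numbered homeobox factors 5 of 42 fell and none rose, against 3 when PHD6-control replicate 3 was left out and 2 when WT-control replicate 3 was. *HB34* averaged 39.7 ± 3.34 CPM in PHD6-control and 61.5 ± 4.18 CPM in WT-control (SD, n = 3 each, adjusted p = 0.00572 by edgeR), and *HB16* 26.9 ± 4.41 and 42.8 ± 1.34 CPM (log2 fold change -0.67, adjusted p = 0.0149, and -0.69 with an adjusted p of 0.0553 without WT-control replicate 3). *BBX29*, a B-box factor, had 1.75, 1.28 and 0.891 CPM in PHD6-control and 3.81, 2.99 and 2.83 CPM in WT-control. Its adjusted p of 0.0419 by edgeR was between 0.0703 and 0.126, and its log2 fold change of -1.30 between -1.38 and -1.08, when PHD6-control replicate 2 or 3 or any of the 3 WT-control libraries was left out.

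Abscisic acid (ABA), the drought hormone, is sensed by PYR/PYL receptors that block clade A PP2C phosphatases and is broken down by CYP707A hydroxylases. A single member of each of these groups was called by edgeR, and DESeq2 called a second receptor, *PYL4*, and a second hydroxylase, *CYP707A1*. *PYL5*, a receptor, had 20, 24 and 42.9 CPM in PHD6-control, against 7.63, 6.11 and 6.67 CPM in WT-control (log2 fold change 2.09 ± 0.28, adjusted p = 0.00445, edgeR). The other 8 receptors tested were not called by edgeR on these 6 libraries, among them *PYL4* (42.4, 44.4 and 69.1 CPM in PHD6-control, 29.8, 26.4 and 35.4 CPM in WT-control, adjusted p = 0.0666, but called by edgeR with no filter, with all 12 libraries or with a replicate block) and *PYL6* (3.42, 3.62 and 5.91 CPM against 2.04, 1.83 and 3.22 CPM, adjusted p = 0.17). *PP2CA* had 138, 125 and 125 CPM in PHD6-control, against 64.1, 57.3 and 57.1 CPM in WT-control (adjusted p = 0.000512, edgeR), while the phosphatases *HAB1* and *HAI1* overlapped between groups. *HAI1* varied widely, with 0.877, 2.43 and 2.47 CPM in PHD6-control and 7.63, 3.92 and 0.735 CPM in WT-control. *CYP707A3* had 55.8, 22.1 and 24.5 CPM in PHD6-control, against 3.45, 2.94 and 4.64 CPM in WT-control (log2 fold change 3.22 ± 0.39, adjusted p = 0.00313, edgeR). For *CYP707A1* the values were 6, 4.81 and 7.17 CPM against 3.4, 3.79 and 1.81 CPM (adjusted p = 0.0956). The synthesis genes *ABA1* and *ABA2* had log2 fold changes of -0.07 and -0.24 (adjusted p = 0.778 and 0.549, edgeR). Among 23 cold and dehydration effector genes 4 rose and none fell, with 6 called with PHD6-control replicate 3 left out and 2 with WT-control replicate 3 left out. *ERD15* had 913, 841 and 1048 CPM in PHD6-control and 566, 511 and 497 CPM in WT-control, and *RD26*, an ABA-responsive NAC factor, 13.5 ± 1.78 and 6.54 ± 0.95 CPM (SD, n = 3 each, adjusted p = 0.00603 by edgeR).

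Part of the defence genes rose with the transgene, and the number of calls depended on the libraries, as it did over all genes. Of 32 salicylic acid and pathogen defence genes 9 rose and none fell, where 4.26% of all genes rose and 0.722% fell. Of the 32 genes 26 were higher in every PHD6-control library than in any WT-control library. Over all genes tested 24.8% had no overlap in either direction. The median log2 fold change of the 32 was 1.098. The list's median log2 ratio was 0.789, 0.713 and 1.47 in PHD6-control replicates 1 to 3, against 0.072, 0.146 and -0.286 in WT-control replicates 1 to 3. Replicate 3 was thus the highest of PHD6-control and the lowest of WT-control. Calls were 5 when PHD6-control replicate 3 was left out and 3 when WT-control replicate 3 was, and DESeq2 called 19. Over all genes 2.77 and 2.27% rose with those libraries left out, and DESeq2 called 1219 of 19681 higher. *NPR3*, a salicylic acid receptor, had 60.8, 48.2 and 64.3 CPM in PHD6-control, against 26.5, 22.2 and 22 CPM in WT-control (log2 fold change 1.29 ± 0.13, adjusted p = 0.00133, edgeR). *SARD1*, an activator of salicylic acid synthesis, had 58.1, 45.5 and 81.5 CPM in PHD6-control and 17.7, 23 and 13 CPM in WT-control. Of 28 early immune receptors and kinases 12 rose and none fell, against 10 with PHD6-control replicate 3 left out and 4 with WT-control replicate 3 left out. *LYK5*, a chitin receptor, had 25.2, 16.4 and 23.9 CPM in PHD6-control and 8.47, 8.03 and 5.65 CPM in WT-control. *MPK3*, a kinase of the immune cascade, had 168, 113 and 175 CPM in PHD6-control and 73.1, 64.7 and 67.3 CPM in WT-control, and the syntaxin *SYP121* 80.6, 60.5 and 82.8 CPM against 44.9, 36.4 and 36.8 CPM. Cysteine-rich receptor-like kinases rose in 8 of 41 genes, with 5 called when PHD6-control replicate 3 was left out, 4 when WT-control replicate 3 was and 15 by DESeq2. *CRK41* had 48.9, 39.7 and 43 CPM in PHD6-control and 17.1, 12.9 and 13.4 CPM in WT-control, and *CRK14* had 24.4 ± 7.36 and 7.72 ± 1.19 CPM (SD, n = 3 each). In indolic defence, *MYB51* rose (27.9 ± 8.03 CPM in PHD6-control and 10 ± 1.82 CPM in WT-control) and its relative *MYB34* fell (12.4 ± 3.71 and 26 ± 0.812 CPM, SD, n = 3 each). For *MYB34* the log2 fold change of -1.08 (adjusted p = 0.0182, edgeR) was -1.06 without WT-control replicate 2 (adjusted p = 0.051) and -1.10 without WT-control replicate 3 (adjusted p = 0.0693). None of 20 genes of aliphatic glucosinolate synthesis tested was called by edgeR, with 6 lower at an unadjusted p under 0.05 and 2 called lower by DESeq2.

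**Figure D4:**
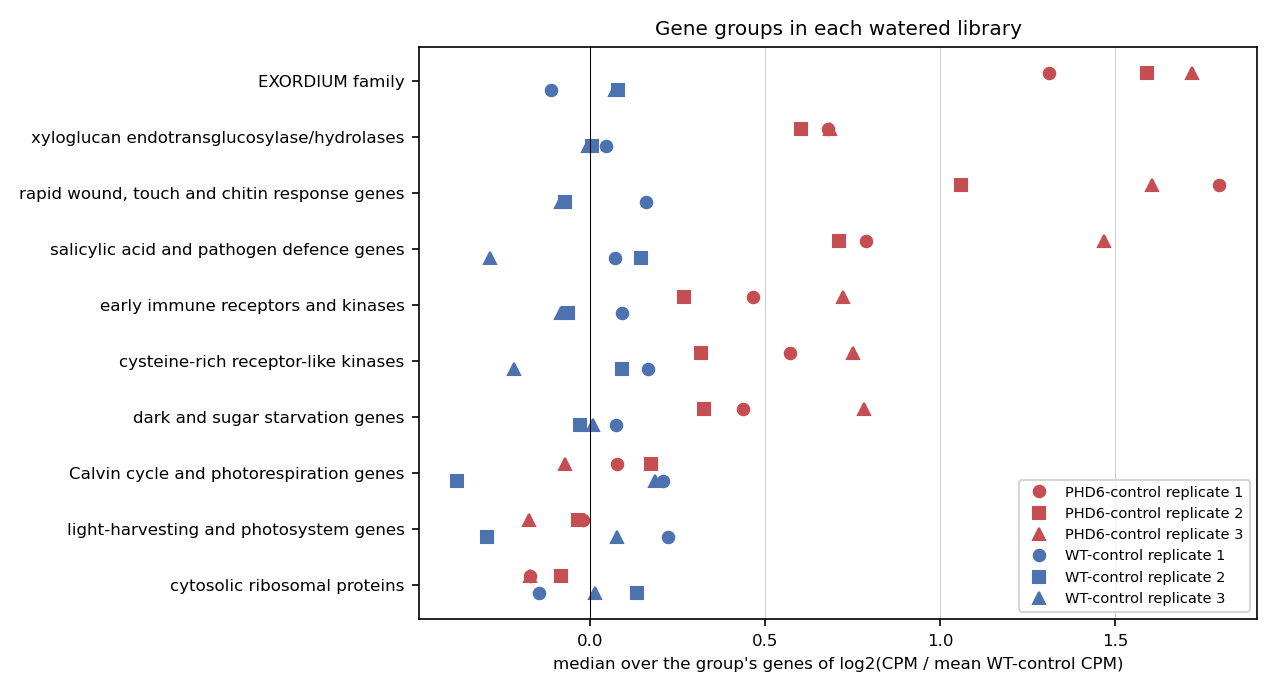
Median over the genes of a group of the log2 ratio of CPM to the WT-control mean, in each PHD6-control library (red, above) and WT-control library (blue, below), with a symbol for each replicate. Touch genes lay at 1.06 to 1.797 in PHD6-control and -0.083 to 0.161 in WT-control, while defence genes of PHD6-control replicate 3 (1.47) stood apart from those of replicates 1 and 2 (0.789 and 0.713).

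Rises were also found among genes that respond to carbon and nitrogen supply. Of 38 dark and sugar starvation genes 16 rose and none fell, with 12 called when PHD6-control replicate 3 was left out and 10 when WT-control replicate 3 was. The list was drawn up with values of some members known and shares *PHI-1* with the cell wall group. AT3G15450, a gene of the aluminium-induced protein family, had 401, 460 and 539 CPM in PHD6-control and 143, 131 and 185 CPM in WT-control. *BZIP53*, a factor of amino acid breakdown during starvation, had 138, 119 and 128 CPM in PHD6-control and 62.7, 59.8 and 65.7 CPM in WT-control (log2 fold change 1.03 ± 0.08, adjusted p = 0.000722, edgeR). Of 8 trehalose phosphate synthases 5 rose and 1 fell, against 3 and 0 when either PHD6-control replicate 3 or WT-control replicate 3 was left out. *TPS8* had 156, 163 and 216 CPM in PHD6-control, against 67, 60.6 and 59.8 CPM in WT-control. *TPS11* and *TPS9* had log2 fold changes of 1.01 and 0.80 (adjusted p = 0.00181 and 0.00687, edgeR). Of 28 genes of starch and sucrose metabolism 3 rose, where 4.26% of all genes rose, and the median was 0.02. The count was 1 when either PHD6-control replicate 3 or WT-control replicate 3 was left out, where 2.77 and 2.27% of all genes rose.

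Among 22 genes on a list of nitrate uptake and assimilation, which also holds regulators, 7 rose and none fell. The number called higher was 5 when PHD6-control replicate 3 was left out and 6 when WT-control replicate 3 was. None of the list members given below is a nitrate transporter or an assimilation enzyme, and calls among those were not counted apart. *LBD38*, a repressor of nitrogen responses, had 37.3, 37.6 and 38.5 CPM in PHD6-control, against 22.2, 20.5 and 20.8 CPM in WT-control, a small but tight difference (log2 fold change 0.84 ± 0.07, adjusted p = 0.000768, edgeR). Its relative *LBD39* had 50.7, 53.6 and 47 CPM in PHD6-control and 28.5, 29.1 and 29 CPM in WT-control. AT1G25550, a myb-like factor of the nitrate response, averaged 133 ± 5.13 and 61.5 ± 9.43 CPM, and the BTB and TAZ domain gene *BT1* 51.6 ± 4.17 and 28.6 ± 5.73 CPM in PHD6-control and WT-control (SD, n = 3 each). No phosphate starvation gene was called higher by edgeR, where 4.26% of all genes were. At the study's thresholds 1 was higher and 2 were lower, where 3.06% of all genes were higher and 0.417% lower. Of 20 tested 2 fell, *G3Pp1*, a putative glycerol-3-phosphate transporter (5.08, 4.28 and 4.09 CPM in PHD6-control, 17.9, 12.4 and 8.65 CPM in WT-control), and *SPX1*, a phosphate sensor (7.34, 5.91 and 5.75 CPM against 12.4, 10.7 and 11.3 CPM). Of 15 sulfur starvation genes 2 fell, against 1 when either PHD6-control replicate 3 or WT-control replicate 3 was left out and 4 by DESeq2. Over all genes 0.722% fell, and 0.279 and 0.31% fell with those replicates left out. DESeq2 called 264 of 19681 genes lower. *APR1*, an enzyme of sulfate reduction, averaged 67.5 ± 4.36 CPM in PHD6-control and 100 ± 5.53 CPM in WT-control (SD, n = 3 each, adjusted p = 0.00591 by edgeR).

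Some genes of other hormone pathways changed. *ACS11*, an ethylene synthesis enzyme, had 11, 4.63 and 7.78 CPM in PHD6-control, against 0.836, 0.936 and 0.622 CPM in WT-control (log2 fold change 3.27 ± 0.36, adjusted p = 0.00195, edgeR). *GA2OX2*, which inactivates gibberellin, had 13.5, 12.7 and 14.3 CPM in PHD6-control and 6.01, 6.6 and 5.37 CPM in WT-control. Of 17 cytokinin response genes 2 rose and 1 fell by edgeR, where 4.26% of all genes rose and 0.722% fell. DESeq2 called 2 of the 17 higher and 4 lower, and of all 19681 genes 1219 and 264. The log2 fold changes of the 17 ran from -0.69 to 0.71 with a median of -0.02. The highest was that of the response regulator *RR5*, with 36.2, 34.7 and 35.9 CPM in PHD6-control and 22.4, 21.5 and 21.5 CPM in WT-control. *SHY2*, an auxin response repressor, averaged 55.5 ± 2.2 and 30.7 ± 3.88 CPM (SD, n = 3 each, adjusted p = 0.00249 by edgeR). SAUR genes, small auxin-induced growth genes with many similar copies, went both ways, with 5 of 57 higher and 4 lower. Over all genes 4.26% rose and 0.722% fell. The SAUR counts were 4 and 2 when either PHD6-control replicate 3 or WT-control replicate 3 was left out. They were 4 and 8 with a replicate block and 7 and 11 by DESeq2. AT1G72430 had 103 ± 4.15 CPM in PHD6-control and 51.1 ± 9.11 CPM in WT-control, and AT4G38860 had 35.5 ± 7.6 and 80.8 ± 14.6 CPM (SD, n = 3 each). Their values are uncertain where reads of similar copies were shared. Of 15 jasmonate output genes none was called higher by edgeR and 1 was called lower, where 4.26% of all genes rose and 0.722% fell. At the study's thresholds 1 was higher and 0 were lower, and log2 fold changes ran from -1.75 to 1.84. The list varied within both groups. Its median log2 ratio to the WT-control mean was -0.399, -0.584 and 0.96 in PHD6-control replicates 1 to 3. In WT-control replicates 1 to 3 it was -0.179, 0.785 and -0.665. Of 26 clock genes 1 rose and 1 fell, where 4.26% of all genes rose and 0.722% fell, and the median was -0.10. The factor *TCP11* rose (190 ± 6.03 and 113 ± 14.5 CPM) and *EPR1*, a factor related to the clock's own MYB-like proteins, fell (6.02 ± 1.28 CPM in PHD6-control and 12 ± 0.779 CPM in WT-control, SD, n = 3 each).

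Further rises named by size were AT5G52050, a MATE efflux carrier, and AT2G41640, a glycosyltransferase. AT5G52050 had 25.2, 14.1 and 17.9 CPM in PHD6-control, against 1.2, 1.16 and 1.19 CPM in WT-control, and AT2G41640 had 33.9, 17.2 and 28.1 CPM against 2.61, 2.54 and 2.54 CPM. In both genes the WT-control libraries lay close together and all PHD6-control libraries were above them. One transcript with no product named in the annotation, AT3G00800 (chromosome 3, 16788890 to 16789135), was almost silent in WT-control, with 79, 42 and 32 reads in PHD6-control against 3, 3 and 0 reads in WT-control. It had 3, 10 and 3 reads in PHD6-drought and 25, 11 and 10 reads in WT-drought.

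The largest falls were smaller than the largest rises. AT1G78170, annotated as an E3 ubiquitin ligase, had 9.14, 10.1 and 7.05 CPM in PHD6-control, against 26.4, 23.1 and 28.1 CPM in WT-control (log2 fold change -1.56 ± 0.14, adjusted p = 0.00103, edgeR). *ASG8*, an uncharacterized protein, had 13.4, 10.1 and 10.1 CPM in PHD6-control and 35.4, 26.4 and 33.1 CPM in WT-control. AT1G48330 had 9.51, 12.4 and 10.3 CPM in PHD6-control and 19.8, 32.2 and 25.3 CPM in WT-control, and AT3G45210 had 5.45, 5.25 and 4.17 CPM against 12.4, 13.2 and 10.3 CPM. AT4G29110 (4.75, 2.16 and 3.04 CPM in PHD6-control, 8.2, 7.85 and 7.01 CPM in WT-control) was called with an adjusted p of 0.0371 by edgeR, which lay between 0.0631 and 0.132 when any library but PHD6-control replicate 1 was left out, while the log2 fold change of -1.22 lay between -1.28 and -0.98. *CLH1*, a chlorophyllase, had 77.4, 63.8 and 75.6 CPM in PHD6-control and 146, 114 and 138 CPM in WT-control (adjusted p = 0.00465, edgeR).

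Photosynthesis genes were not called. None of 44 light-harvesting and photosystem genes, 25 Calvin cycle and photorespiration genes or 9 plastocyanin and electron transport genes passed edgeR's test or DESeq2's, with medians of -0.08, 0.06 and -0.03. At an unadjusted p under 0.05 in edgeR 0, 1 and 0 of them were lower and none was higher. *PETE1* had 296, 304 and 304 CPM in PHD6-control and 287, 234 and 268 CPM in WT-control (log2 fold change 0.20 ± 0.10, adjusted p = 0.334), and *DRT112*, the other plastocyanin, 3696 ± 227 and 3786 ± 534 CPM (SD, n = 3 each). None of the 7 native Alfin-like genes of Arabidopsis was called by edgeR or DESeq2, and 0 had an unadjusted p under 0.05. Their log2 fold changes ran from -0.29 for *AL5* to 0.20 for *AL3*, and their median of -0.02 equalled that of all genes. Nor was any member called among 26 aquaporins, 17 guard cell genes, 20 senescence genes, 20 flavonoid and anthocyanin genes or 252 cytosolic ribosomal proteins by edgeR. DESeq2 called 1 aquaporin and 1 senescence gene higher and 1 ribosomal protein gene lower, and at an unadjusted p under 0.05 the lists held 1, 2, 4, 2 and 43 genes. Of the ribosomal protein genes 48 were lower in every PHD6-control library than in any WT-control library and 4 were higher. Together these are a smaller share than the 24.8% of all genes without overlap in either direction. Most small differences in the list were decreases: of the 43 at an unadjusted p under 0.05 in edgeR 41 were lower and 2 higher, and the list's median was -0.15. *UBQ10*, the reference gene of the study's qRT-PCR, had 860, 865 and 954 CPM in PHD6-control and 1082, 925 and 912 CPM in WT-control (adjusted p = 0.635, edgeR).

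The same contrast under drought, PHD6-drought vs. WT-drought, shares no library with that in watered plants. There 521 genes were higher (2.65%) and 765 lower (3.89%). Of the 839 genes that rose with the transgene in watered plants 550 had a fold change below 1 under drought, and 247 of these were called lower, while 289 were above 1 and 64 of these were called higher. Their median log2 fold change was 0.90 in watered plants and -0.22 under drought. Of the 142 genes that fell in watered plants 108 were above 1 under drought, 18 of them called, and 34 were below 1, 2 of them called, with medians of -0.69 and 0.17. *PHI-1* had a log2 fold change of 6.06 in watered plants and -3.91 under drought (adjusted p = 0.00932, edgeR), and *DREB26* 5.08 and -2.45 (adjusted p = 0.0341). For *EXPA1* the signs were reversed, with -1.11 in watered plants and 1.19 under drought (adjusted p = 0.00749, edgeR). Other genes lay nearer to 0 under drought, with 0.09 for *STZ* (adjusted p = 0.835), -0.17 for *SZF1* (adjusted p = 0.542) and 0.33 for *WRKY70* (adjusted p = 0.129). *CRK14* and *SARD1* rose in both settings, by 1.65 and 1.78 in watered plants and by 0.67 and 0.72 under drought (adjusted p = 0.0214 and 0.0286, edgeR). Over all 12 libraries the transgene's effect differed between watered and drought plants in 1373 genes (6.98%), of which 1102 were lower under drought than in watered plants (5.6%) and 271 were higher (1.38%).

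**Figure D5:**
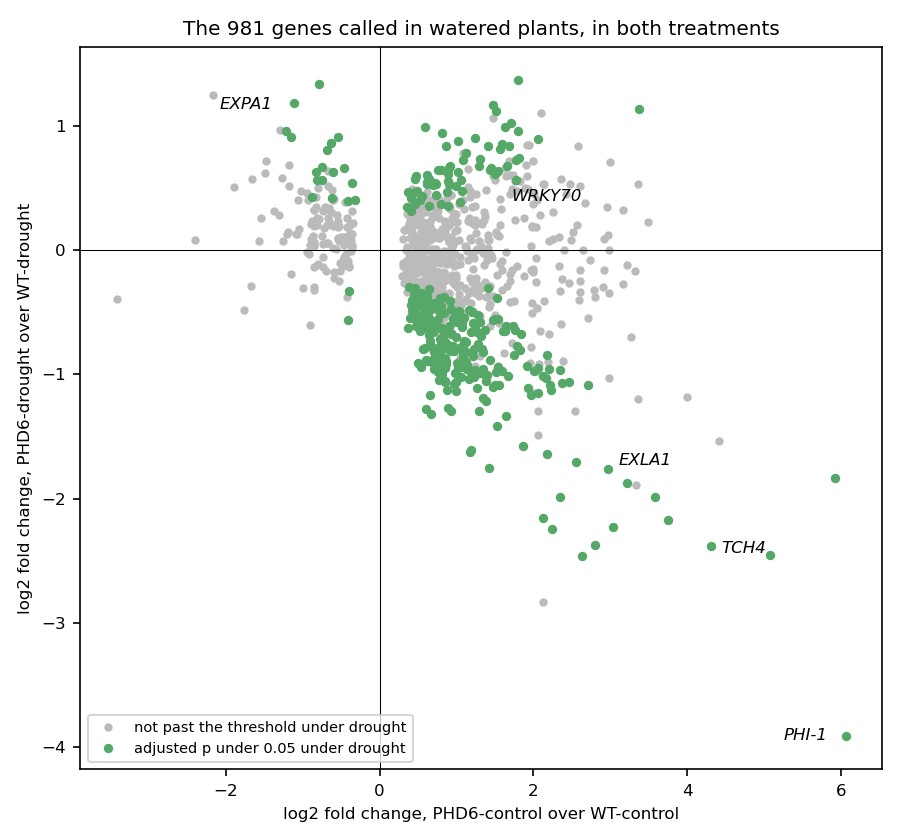
For the 981 genes called in watered plants, the log2 fold change of PHD6-control over WT-control (horizontal) and of PHD6-drought over WT-drought (vertical), with genes called under drought in green. Of the 839 genes right of 0, 550 lie below the horizontal line and 289 above it.

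Of the 113 genes given with values, 14 overlap another annotated gene, among them *EXLA1*, *TCH2*, *TCH3*, *MYB73*, *MYBR1*, *WRKY53*, *SARD1*, *CPK28*, *SHY2*, *APR1*, AT2G41640 and AT3G15450. Whether reads were counted by strand was not given in the sources used here, so their values could include reads of the neighbour.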

How the data were processed

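Leaf RNA of 12 libraries was sequenced in pairs of reads by the authors, who per the labels used HISAT2 2.0.5 for alignment and featureCounts 1.5.0-p3 for counting. The deposited values are raw counts per gene, whole numbers with no normalization. The genome build is not given in the sources used here. All 36061 named genes matched the TAIR10.1 annotation of RefSeq, which gave symbols, positions and promoter windows. The table also held 2021 entries with no gene name, which took 0.387 to 0.437% of the counts in the 6 watered libraries and entered neither library sizes nor tests. Columns of the authors' own comparisons were not used.

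PHD6-control was compared with WT-control on their 6 libraries in R 4.3.3 with edgeR 4.0.16: TMM scaling, then the quasi-likelihood F-test, with Benjamini-Hochberg adjustment over 19681 genes kept by filterByExpr (minimum count 10, all 4 groups). PHD6-drought vs. WT-drought had a fit of its own, and the interaction used all 12 libraries. Each group had 3 biological replicates according to the paper. The depth, 17839925 to 24717357 counts per watered library, sets the precision of low genes, and p-values also cover the spread between replicates. The steps were tested on simulated data.

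Alternatives were the size factors of DESeq2 1.42.0, upper-quartile scaling, DESeq2 itself, no filter, a minimum of 1 CPM in every one of the 6 libraries, a joint fit of all 12, a replicate block, removal of organelle genes, and removal of single libraries. Same-numbered libraries did not deviate together (r = 0.019, -0.027 and -0.489), so the main test has no block.

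Named genes were the 12 largest rises and 8 largest falls that were called, reached a mean of 5 CPM in either group and did not overlap, up to 4 members of each of 77 lists with the smallest p, genes named by the study (20 of 21 tested), the native Alfin-like genes, genes with at most 3 counts in each library of one group and at least 30 in each of the other, and *UBQ10*. *XTH18* was added after its values were seen. By hand came 47 of the lists, the others from symbols and descriptions. The comparison, the lists and the named genes were chosen with earlier results of these data known, and the promoter elements were chosen by hand.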

Additional observations from a re-analysis of the deposited data

Results flagged for a closer look

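Of the 113 genes given with values, 90 had a transgene effect that differed between drought and watered plants by the interaction test over all 12 libraries (edgeR's quasi-likelihood test, adjusted p under 0.05), against 6.98% of all genes tested. Most of the 113 were named for their change in watered plants, so this count is not an independent result. The values below are the log2 effect under drought minus that in watered plants, and a negative value means that the effect was lower under drought. *EXLA1* had a difference of -4.75 ± 0.29 and *PHI-1* one of -9.99 ± 0.76 (standard errors).

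The differences of the largest size were those of *PHI-1* -9.99, AT1G33760 -7.77, *DREB26* -7.55, *TCH4* -6.71, AT3G00800 -5.96, *EXO* -5.94, AT1G77640 -5.25, AT5G52050 -5.20, *EXLA1* -4.75, AT2G41640 -4.57 and *XTH33* -4.35. The next were those of *ACS11* -3.98, *SZF1* -3.51, *MYB70* -3.38, *CYP707A3* -3.35, *XTH18* -3.34, *MYB77* -3.29, *ZAT7* -3.28, *WRKY18* -3.22, AT1G22190 -3.21, *MYB73* -3.17, *MYBR1* -3.15, *ZF1* -3.09, *XTH30* -3.03, *TCH2* -3.02, *EXLA3* -3.004, *XTH25* -2.99992, *EXL5* -2.998, *BME3* -2.996, *STZ* -2.84, *NAC090* -2.83, *CML38* -2.82, *AGP17* -2.82, *PYL5* -2.76, *CIPK15* -2.69, *EXL3* -2.65 and *TPS8* -2.51. Smaller ones were those of *ERF6* -2.42, *EXLA2* -2.30, AT3G15450 -2.28, *ERF104* -2.18, *CPK32* -2.17, *RAV1* -2.14, *RAV2* -2.10, *PP2CA* -2.04, *FLA9* -1.99, AT1G72430 -1.93, *RD26* -1.93, *BT1* -1.93, AT5G44260 -1.89, *TCH3* -1.80, *CRK41* -1.77, *WRKY53* -1.74, *SHY2* -1.74, *GA2OX2* -1.66, *CSLC04* -1.66, *TPS11* -1.60 and AT1G25550 -1.53, and the smallest below 0 those of *CPK28* -1.50, *BZIP53* -1.47, *TEM1* -1.45, *LYK5* -1.37, *RR5* -1.33, *NAC062* -1.28, *TPS9* -1.27, *WRKY70* -1.26, *NPR3* -1.24, *LBD38* -1.23, *TCP11* -1.23, *ERD15* -1.02, *MPK3* -0.93, *LBD39* -0.90 and *PETE1* -0.52. The difference was above 0 for *EXPA1* 2.28, *BBX29* 2.25, *ERF15* 2.19, AT4G29110 2.16, *ASG8* 2.099, AT3G45210 1.84, *G3Pp1* 1.78, AT2G44940 1.67, AT1G78170 1.62, AT4G38860 1.33, AT1G48330 1.32, *MYB34* 1.19, *HB16* 1.18, *CLH1* 1.097, *GATA7* 1.03, *HB34* 0.92 and *APR1* 0.76. Among genes of the defence lists *SARD1*, *CRK14*, *MYB51* and *SYP121* were not past the threshold (adjusted p = 0.0775, 0.0512, 0.156 and 0.276). Groups of 3 libraries were not examined for outliers.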

How the results depend on the processing

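All 839 rises and 142 falls kept their direction under each alternative in which they were tested (790 and 134 at the 1 CPM minimum), while the number called moved. The numbers higher and lower were 1262 and 336 with all 12 libraries fitted together, and the number lower was 264 with DESeq2 and 220 with upper-quartile scaling, which shifted the median of all genes by -0.06. DESeq2 called 1219 higher. At the study's thresholds 160 genes were lower with no filter and 34 with at least 1 CPM in all 6 libraries, against 82. The causes were not tested. Leaving out a library gave 446 to 742 genes higher and 55 to 142 lower at an adjusted p under 0.05, and 458 to 722 higher and 69 to 147 lower at the study's thresholds. The lowest number higher came without WT-control replicate 3, the lowest number lower without PHD6-control replicate 3. The interaction called 1340 to 1591 genes over its alternatives.

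With the replicate numbers as a block 622 genes were higher and 96 lower, of which 601 and 78 were among those called without it. The numbers were not shown to pair the samples, and a call lost under the block is not a weaker effect. Of the 96 named genes called, 87 were called under every alternative in which they were tested. All 96 were called under those of them that kept every library. Some low genes, among them *ZAT7* and *EXLA3*, were tested in 13 of the 14 alternatives, since the minimum of 1 CPM left them out. Direction turned only for 2 genes that were not called, *ABA1* (log2 fold change -0.17 to 0.014 with single libraries left out, above 0 without WT-control replicate 1) and *DRT112* (-0.15 to 0.042, above 0 without PHD6-control replicate 3 or WT-control replicate 1 or 3). At 1 CPM a gene has few reads, which limits the precision of low genes such as *EXLA3* and *BBX29*. Errors did not follow level alone, since that of *EXLA3* (0.29) was below that of the higher *STZ* (0.46).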
